A study of Mus musculus with 12 samples.

Results

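The genes examined here encode chemokines and the receptors that bind them, and their RNA was read in the aorta of mice with and without an aortic dissection challenge and with and without rapamycin. Members were defined by a rule on gene names, and that rule was chosen with earlier results of these data known. They were all non-control probes named Ccl, Cxcl, Cx3cl or Xcl with a number, or Ccr, Cxcr, Cx3cr or Xcr with a number, or Ccrl1, Ccrl2 or Pf4. This gave 58 genes (36 ligands and 22 receptors) read by 75 probes, out of 34797 gene names on the array. Of these, 28 genes were tested, against 20026 tested genes in all, because testing required a probe whose signal stood well above background throughout some group of 3 arrays.

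Each of 12 arrays held aortic RNA from 1 male C57BL/6J mouse aged 11 to 14 weeks, in 4 groups of 3, taken on day 3 from the 10 mm of aorta above the branch of the right renal artery. DMSO mice received daily intraperitoneal dimethylsulfoxide, the vehicle, and the titles of their samples begin with Pre. Rapamycin mice received rapamycin, an inhibitor of the kinase mTOR, at 2 mg/kg/day in DMSO. BA+DMSO mice received DMSO and the challenge, an infusion of beta-aminopropionitrile (BAPN) at 150 mg/kg/day, which blocks collagen crosslinking, with angiotensin II (AngII) at 1 µg/kg/min. BA+rapamycin mice received the same challenge with rapamycin at 2 mg/kg/day. By the labels and the study's methods every group thus received DMSO. The study also uses Pre for tissue from before the challenge, and how that relates to the DMSO mice here is not given in the sources used here. The challenge agents were given to the whole mouse by osmotic minipump.

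Chemokines are small secreted or membrane-bound proteins that guide leukocytes along gradients by way of receptors coupled to G proteins. They are named by the spacing of their conserved cysteines (CC, CXC, CX3C and XC). CC ligands such as Ccl2 draw monocytes through Ccr2, CXC ligands such as Cxcl1 draw neutrophils through Cxcr2, and homeostatic ligands such as Cxcl12 position cells in resting tissue. Atypical receptors, here Ccrl1 (Ackr4), Cxcr7 (Ackr3) and Ccrl2, bind ligands without the usual G protein signal and clear or present them.

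Every level below is the log2 intensity of a probe minus the 75th percentile of its own array, so 0 is that percentile and levels are compared only within a probe. That percentile itself, a measure of array brightness, was 221 to 280 intensity units for DMSO arrays and 257 to 337 for rapamycin arrays. It was 78.1 to 246 for BA+DMSO arrays and 74.6 to 109 for BA+rapamycin arrays. All DMSO arrays lay on 1 slide together with rapamycin replicate 1, and the other 8 arrays lay on the second slide. Slide and challenge were therefore nearly confounded. Within the rapamycin group, the arrays of the second slide differed from the array of the first by a median of 0.13 over the members and 0.02 over all genes tested. Members spread most in BA+DMSO, where the median SD over the 28 genes was 0.69, against 0.45 in DMSO, 0.21 in rapamycin and 0.36 in BA+rapamycin. BA+DMSO replicate 1 was the highest of its group for 21 of the 28 genes and replicate 2 the lowest for 16. Marker lists differed between these arrays too: relative to the DMSO mean, the median smooth muscle marker was at -1.40 in BA+DMSO replicate 1, 0.15 in replicate 2 and -0.25 in replicate 3, and the median monocyte and macrophage marker was at 2.72, 1.42 and 2.14. The part of this in the chemokine results was not tested. In whole tissue, more cells of a type and more RNA per cell cannot be told apart.

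Of 22 receptors, 14 were not tested, and no probe of Ccr1, Ccr4, Ccr8, Ccr10, Ccr1l1, Cxcr2, Cxcr4, Cxcr5 or Xcr1 was well above background on any array. The same held for the ligands Cxcl2, Cxcl3, Cxcl15, Ccl20, Ccl22, Ccl26, Ccl28, Cxcl17 and Xcl1, which makes 18 genes in all. The remaining 12 untested genes were above background on 1 to 5 arrays each: the receptors Ccr3, Ccr6, Ccr9, Cxcr1 and Cxcr3 and the ligands Ccl1, Ccl3, Ccl4, Cxcl5, Cxcl9, Cxcl10 and Cxcl13. Ccl4, an attractant of monocytes and T cells, was above background on 2 BA+DMSO arrays and 1 BA+rapamycin array and on no unchallenged array. Cxcl5, a neutrophil attractant, was above background on 2 arrays of each challenged group and 1 rapamycin array. Cxcl10, an interferon-induced ligand of Cxcr3, was above background on 2 BA+DMSO arrays and on no other.

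**Figure D1:**
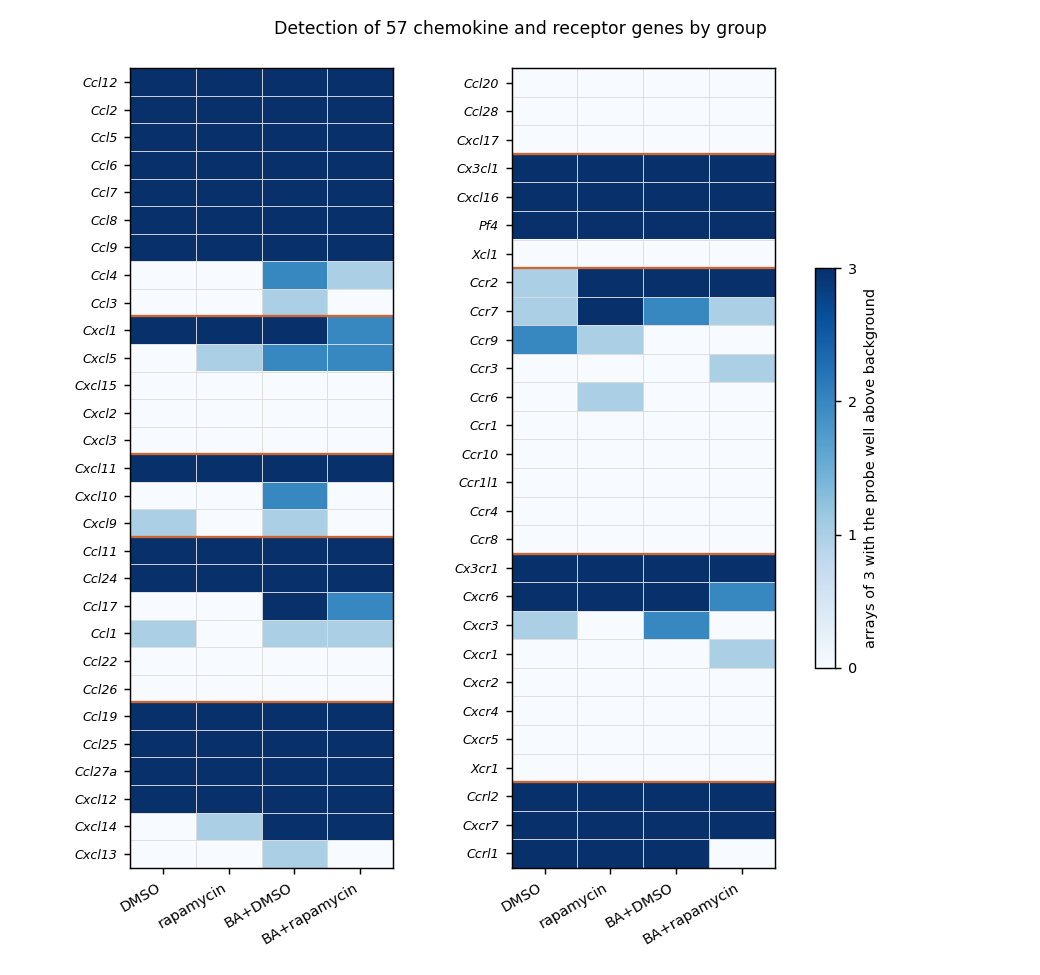
Number of arrays (0 to 3, colour scale) on which the probe of each of 57 genes was well above background, by group, with orange lines between families. The monocyte-attracting ligands and the atypical receptors fill most columns, whereas 9 receptors are blank in all 4 groups. Ccrl1 is blank in BA+rapamycin only.

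The challenge contrast (BA+DMSO minus DMSO) asked which members the challenge altered in vehicle-treated mice. Of 28 genes tested, 20 were called at a limma adjusted p under 0.05, 18 higher and 2 lower. Over all genes tested, 21.4% were called, 10.4% higher and 11% lower. The median difference was 1.56 over the members and -0.02 over all genes. The arrays of the 2 groups did not overlap for 18 members higher and 2 lower in BA+DMSO, where 15.4% of all genes were without overlap higher and 20.1% lower. Without any single array, 16 of the 20 kept their call. The exceptions were Ccl19 and Ccrl2, which lost it without any of the DMSO arrays or BA+DMSO replicate 1, Pf4, which lost it without DMSO replicate 2, DMSO replicate 3 or BA+DMSO replicate 1, and Ccl27a, which lost it without DMSO replicate 2 or 3. With the slide as a fixed block, where rapamycin replicate 1 alone separates slide from challenge, no member was called, and 0.0599% of all genes were. The titles of 10 arrays carry a run of digits that recurs across groups (5 runs, of which 3 span several groups). With this title run as a fixed block on those 10 arrays, an alternative chosen after seeing the data, which leaves BA+DMSO replicate 1 alone in its group and assumed to vary like the others, 7 members were called, all higher (Ccl2, Ccl6, Ccl7, Ccl9, Ccl12, Ccl17 and Cxcl16), where 5.96% of all genes were. Without the block, the same 10 arrays gave 24 calls, where 35.5% of all genes were called.

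Monocyte-attracting CC ligands rose as a group: all 7 of the 7 tested were called higher, with a median difference of 3.36. Ccl2 (monocyte chemoattractant, mm9 chromosome 11, 81850650 to 81850709) read -0.60, -1.99 and -2.96 in DMSO and 4.66, 1.92 and 3.38 in BA+DMSO. The lowest challenged array stood well above the highest vehicle array. The difference was 5.17 (SE 0.72), a 36.1-fold rise with a limma adjusted p of 0.00118.

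Ccl7, which binds the same receptor, was also called higher. Its DMSO arrays read -1.21, -2.90 and -2.92 and its BA+DMSO arrays 4.45, 1.39 and 2.88, with no overlap. It was 38.0-fold higher (difference 5.25, SE 0.71, limma adjusted p 0.00107). Ccl12, the third ligand of Ccr2 in the mouse, read -1.05, -2.96 and -2.20 in DMSO and 3.36, -0.02 and 2.50 in BA+DMSO. Its challenged arrays differed widely among themselves, with BA+DMSO replicate 2 far below the other two, yet none reached down to the DMSO arrays. It was 16.1-fold higher (difference 4.01, SE 0.75, limma adjusted p 0.0049).

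Ccl8 read -0.83, -2.38 and -0.41 in DMSO and 3.15, 0.61 and 2.69 in BA+DMSO. Its groups were apart by 3.36 (SE 0.68, limma adjusted p 0.00764). Ccl6 and Ccl9, ligands of Ccr1, were already well above background in DMSO. Ccl6 rose from 1.96, 1.32 and 1.55 to 5.18, 4.34 and 4.34, a difference of 3.01 (SE 0.24), and had the smallest limma adjusted p of the members at 0.0001. Ccl9 rose from 1.71, 0.91 and 0.96 to 4.92, 3.71 and 4.005, a difference of 3.02 (SE 0.30, limma adjusted p 0.000273). For both genes every challenged array stood far above every vehicle array. Ccl5, a T cell and monocyte attractant, rose from -1.57 ± 0.30 to 0.42 ± 0.21 (SD, n = 3 each), a difference of 1.98 (limma adjusted p 0.000948).

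**Figure D2:**
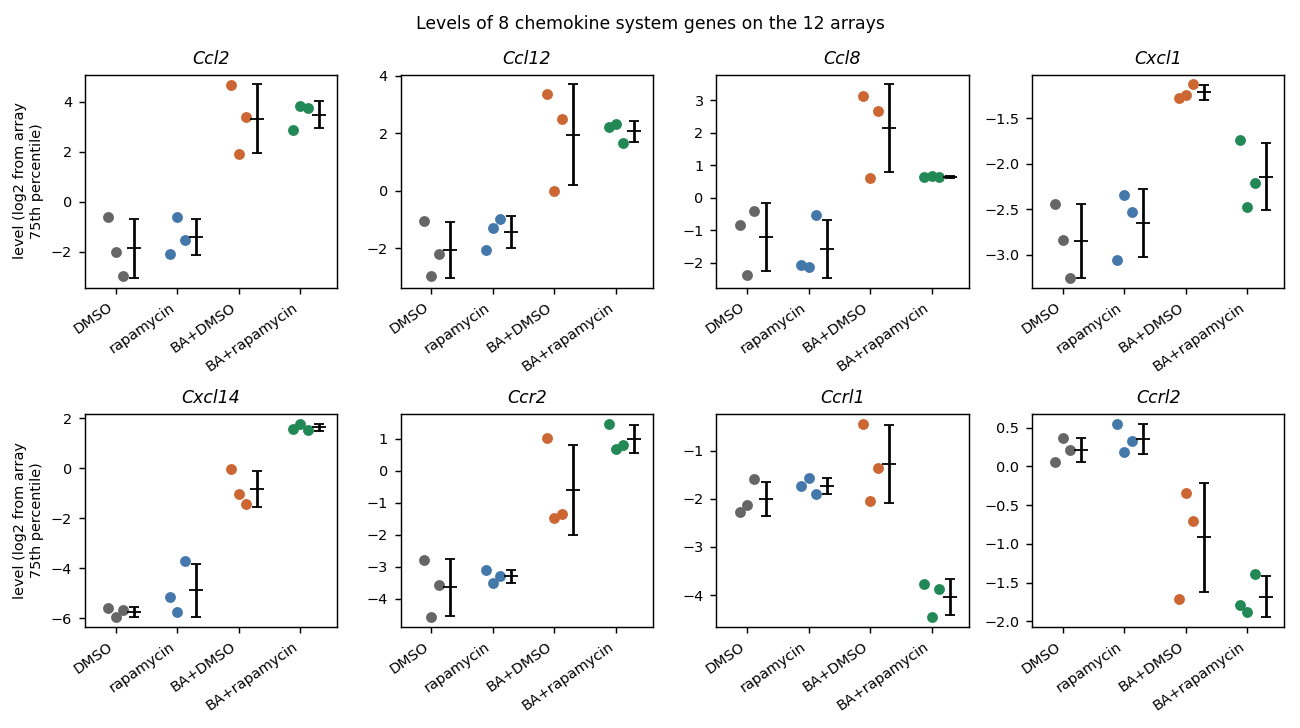
Levels (log2 from the 75th percentile of the array, vertical axis) of 8 genes on each of the 12 arrays (points) by group, with the mean ± SD of 3 arrays beside them in black. Ccl2, Ccl12 and Cxcl14 lie higher on every challenged array than on any unchallenged array, and Ccrl1 is low on the 3 BA+rapamycin arrays only.

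Neighbouring genes were not all called. Ccl2, Ccl7, Ccl11, Ccl12 and Ccl8 lie in this order on mouse chromosome 11, with probes 10.01, 25.4, 66.1 and 79.5 kb from that of Ccl2. Ccl11 (eotaxin, an attractant of eosinophils through Ccr3), in the middle, read -0.22, -1.63 and -1.80 in DMSO and -1.51, -1.15 and -1.13 in BA+DMSO. Its groups overlapped, with a difference of -0.05 (95% interval -1.04 to 0.95), and ran from -1.70 to 0.45 over the alternatives, while its 4 neighbours were called higher by 3.36 to 5.25. Ccl1, 139.8 kb from Ccl2, was above background on 3 of 12 arrays and was not tested. Near Ccr2 on chromosome 9, Cxcr6 was not called, and Ccr1, Ccr3, Ccr9, Ccr1l1 and Xcr1 were not tested.

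**Figure D3:**
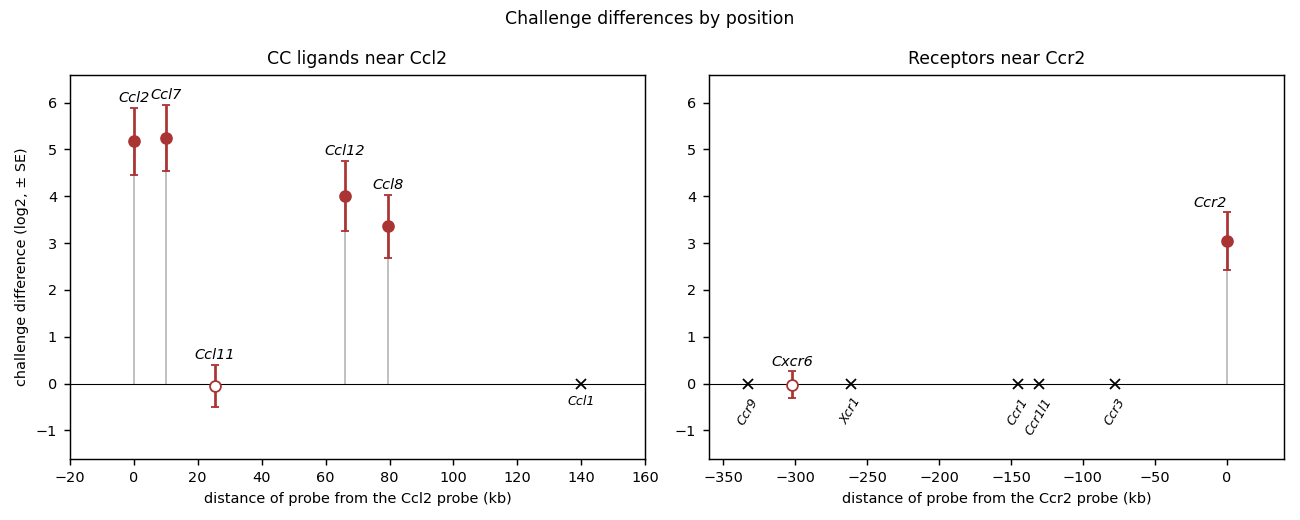
Challenge difference (log2, ± SE) against the distance of the probe from that of Ccl2 (left) or Ccr2 (right) in kb on mm9, with filled points for called genes, open points for genes not called and crosses for genes not tested. Ccl11 is at -0.05 between neighbours at 3.36 or more, and Ccr2 stands at 3.04.

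Promoter sequence was available for 43 of the 58 genes in the RefSeq table for build GRCm38.p6, as 49 windows of the 250 bases before a start site. The windows were searched on both strands for the NF-kB consensus, the AP-1 motif TGACTCA, the TATA motif TATAAA and the interferon-response motif (a pair of GAAA blocks with any 2 bases between them), and no 2 different motifs overlapped. The NF-kB consensus was in 18.4% of member windows and in 3.90% of all 32851 windows. TATAAA was in 28.6% and 12.4%, TGACTCA in 8.16% and 4.46%, and the interferon-response motif in 6.12% and 2.98%. The windows below are those of the neighbours Ccl12 and Ccl8, both raised by the challenge, of Cxcl1 and Cxcl2, of which only Cxcl1 was detected, and of Cxcl14 and Ccrl1, which are described under rapamycin below. Capitals mark motif matches, 5′ to 3′ on the strand of the gene.
Ccl12 (chr11:82101595-82101844, + strand): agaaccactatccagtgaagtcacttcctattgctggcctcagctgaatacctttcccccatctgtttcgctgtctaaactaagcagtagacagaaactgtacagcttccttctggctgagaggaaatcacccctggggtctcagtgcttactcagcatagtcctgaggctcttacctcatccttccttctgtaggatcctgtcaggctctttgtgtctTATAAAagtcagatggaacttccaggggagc
Ccl8 (chr11:82114935-82115184, + strand): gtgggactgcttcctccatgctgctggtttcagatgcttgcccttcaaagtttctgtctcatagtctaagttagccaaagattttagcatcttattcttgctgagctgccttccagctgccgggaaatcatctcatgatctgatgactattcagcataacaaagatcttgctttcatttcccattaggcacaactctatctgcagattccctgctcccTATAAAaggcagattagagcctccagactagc
Cxcl1 (chr5:90890995-90891244, + strand): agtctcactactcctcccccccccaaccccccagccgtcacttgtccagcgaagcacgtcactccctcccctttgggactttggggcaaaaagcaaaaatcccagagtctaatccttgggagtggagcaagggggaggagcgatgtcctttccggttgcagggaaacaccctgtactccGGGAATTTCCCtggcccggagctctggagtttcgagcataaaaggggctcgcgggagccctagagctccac
Cxcl2 (chr5:90903649-90903898, + strand): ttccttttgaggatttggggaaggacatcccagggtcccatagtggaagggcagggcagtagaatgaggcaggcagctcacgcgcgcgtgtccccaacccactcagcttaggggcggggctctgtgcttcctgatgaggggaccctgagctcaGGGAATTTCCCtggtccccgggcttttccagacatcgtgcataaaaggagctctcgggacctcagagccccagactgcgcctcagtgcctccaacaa
Cxcl14 (chr13:56296552-56296801, - strand): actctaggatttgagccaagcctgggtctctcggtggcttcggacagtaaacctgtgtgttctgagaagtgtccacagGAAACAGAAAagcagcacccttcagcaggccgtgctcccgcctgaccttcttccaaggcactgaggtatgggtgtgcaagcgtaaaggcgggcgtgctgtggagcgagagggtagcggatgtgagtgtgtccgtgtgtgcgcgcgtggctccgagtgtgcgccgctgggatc
Ccrl1 (Ackr4, chr9:104126644-104126893, - strand): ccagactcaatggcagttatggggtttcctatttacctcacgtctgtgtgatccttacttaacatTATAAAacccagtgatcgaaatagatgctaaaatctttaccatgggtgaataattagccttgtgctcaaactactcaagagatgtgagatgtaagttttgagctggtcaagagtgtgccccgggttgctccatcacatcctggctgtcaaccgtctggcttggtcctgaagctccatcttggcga

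The windows of Cxcl1 and Cxcl2 held the same run in capitals, in which matches to the NF-kB consensus on the 2 strands overlap, starting 71 and 97 bases before the start site. The windows of Ccl12 and Ccl8 held TATAAA starting 31 and 32 bases before it. A match describes these letters only.

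Of the neutrophil-attracting CXC ligands, 1 of 5 was tested. Cxcl1 (mm9 chromosome 5, 91321845 to 91321904) read -2.44, -2.84 and -3.25 in DMSO and -1.27, -1.25 and -1.13 in BA+DMSO. The challenged arrays were nearly equal and all higher, a 3.08-fold rise (difference 1.62, SE 0.27, limma adjusted p 0.00259). Its receptor Cxcr2 was not well above background on any array.

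Cxcl11, the only tested Cxcr3 ligand, was not called. It read 8.70, 8.75 and 8.90 in DMSO and 9.67, 10.27 and 8.65 in BA+DMSO, and the groups overlapped. The values ran against array brightness. The brightest challenged array, BA+DMSO replicate 3, read lowest, and the dimmest, BA+rapamycin replicate 2, read highest at 10.44. The difference was 0.74 (SE 0.34, limma adjusted p 0.139), and -0.10 with brightness as a covariate. Without BA+DMSO replicate 3 it was 1.18 and called (limma adjusted p 0.00366), a setting in which 39.4% of all genes were called. The gene was also called with array weights (0.81, limma adjusted p 0.00673) and with the slide as a random block (0.74, limma adjusted p 0.0413).

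Among the ligands tied to eosinophils and Th2 cells, Ccl17, the ligand of Ccr4, was called higher. Its 3 BA+DMSO arrays read -1.54, -1.55 and -3.40 and were above background, and no DMSO array was. The rise was at least 3.53-fold (limma adjusted p 0.00332), where each dim array was set no lower than the lowest signal of any probe above background on it. Ccl24, another eotaxin, differed by -0.47 (95% interval -1.35 to 0.41), and its groups overlapped as those of Ccl11 did.

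Homeostatic ligands split. Cxcl14 (mm9 chromosome 13, 56390078 to 56390137), a ligand made by epithelia and stroma, had the largest rise of this family. It read -5.62, -5.96 and -5.69 in DMSO, none well above background, and -0.06, -1.05 and -1.45 in BA+DMSO, all above background. The challenged arrays stood at least 9.28-fold higher (limma adjusted p 0.000219). Ccl19, a lymph node ligand of Ccr7, rose from 2.55, 2.26 and 2.50 to 5.06, 3.09 and 3.65 (difference 1.497, SE 0.42, limma adjusted p 0.0295). Its 2 other tested probes gave 1.62 and 1.31 and were not called. Ccl25, a thymic and gut ligand of Ccr9, rose from -1.15 ± 0.25 to -0.16 ± 0.36 (SD, n = 3 each), a difference of 0.99 (limma adjusted p 0.0077). Its 2 other tested probes gave 0.79 and 0.74 and were not called (limma adjusted p 0.289 and 0.277).

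Ccl27a, a ligand of Ccr10, was the only ligand called lower. It read 2.95, 3.53 and 3.65 in DMSO and 1.90, 2.67 and 2.03 in BA+DMSO. The arrays did not overlap, and all 3 of its probes were called lower, by -1.18, -1.17 and -1.03 (limma adjusted p 0.0119, 0.0162 and 0.0229). The mouse genome holds near-identical copies of Ccl19 and Ccl27a, so these probes may read several copies. Cxcl12, the homeostatic ligand of Cxcr4 and Cxcr7, was not called. Its BA+DMSO arrays read 4.18, 1.88 and 4.08 around its DMSO arrays of 2.93, 2.61 and 2.03, and its difference was 0.86 (95% interval -0.28 to 2.00). Over the alternatives the difference ran from 0.45 to 1.94. The gene was called higher without BA+DMSO replicate 2, with array weights and with the brightness covariate.

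The membrane-bound ligands and Pf4 were all called higher. Cx3cl1 (fractalkine), displayed by endothelium, read 1.42, 1.66 and 1.22 in DMSO and 2.52, 2.39 and 2.42 in BA+DMSO. The challenged arrays hardly differed from each other and all exceeded the DMSO arrays, a 2.02-fold rise (difference 1.01, SE 0.16, limma adjusted p 0.00246). Cxcl16, which also serves as a scavenger receptor, rose from -0.32 ± 0.12 to 1.04 ± 0.47 (SD, n = 3 each), a difference of 1.37 (limma adjusted p 0.00247). Pf4 (platelet factor 4) read 3.94, 2.59 and 3.09 in DMSO and 5.30, 3.93 and 4.78 in BA+DMSO. The groups met at their edges, where 1 DMSO array just exceeded the lowest challenged array, and the difference was 1.46 (SE 0.37, limma adjusted p 0.0202). None of 5 tested platelet markers was called in this contrast, though all 5 estimates were above 0. Gp6 and Tubb1 were not above background on any array, the summed level of the list was 0.598 to 3.13 in DMSO and 1.58 to 3.39 in BA+DMSO, and its part in the Pf4 result was not tested.

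Among the conventional receptors, Ccr2 and Cx3cr1 were called higher. Ccr2, the receptor of Ccl2, Ccl7 and Ccl12 on inflammatory monocytes (mm9 chromosome 9, 124022948 to 124023007), read -2.78, -4.57 and -3.58 in DMSO and 1.03, -1.48 and -1.36 in BA+DMSO. Only 1 DMSO array was above background, and the challenged arrays lay clear of all 3. The difference was 3.04 (SE 0.62, limma adjusted p 0.00782). Cx3cr1, the receptor of Cx3cl1 on resident macrophages and patrolling monocytes, rose from 0.12 ± 0.80 to 2.34 ± 0.57 (SD, n = 3 each), a difference of 2.22 (limma adjusted p 0.00483), and its second probe gave 2.78 (limma adjusted p 0.00787).

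Ccr7, the receptor that takes dendritic and T cells to lymph nodes, read -3.65, -5.95 and -3.51 in DMSO and -2.40, -2.41 and -3.36 in BA+DMSO. The groups did not overlap, yet few arrays were above background and the gene was not called (difference 1.64, limma adjusted p 0.0614). Cxcr6, the receptor of Cxcl16, was not called, with a difference of -0.02 (95% interval -0.66 to 0.61) beside the rise of its ligand.

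None of the 3 atypical receptors was called higher under challenge. Ccrl2, which binds chemerin and presents it to other cells, read 0.06, 0.36 and 0.21 in DMSO and -1.71, -0.34 and -0.71 in BA+DMSO. It was 2.19-fold lower (difference -1.13, SE 0.30, limma adjusted p 0.0252), with BA+DMSO replicate 2 closest to the DMSO arrays. The gene of chemerin itself, Rarres2, differed by -1.07 (limma adjusted p 0.0122), while the signalling receptor of chemerin, Cmklr1, rose at least 3.47-fold (limma adjusted p 0.00845). Cxcr7, which clears Cxcl12, differed by 0.50 (95% interval -0.52 to 1.52) and Ccrl1, which clears Ccl19 and Ccl25, by 0.72 (95% interval -0.07 to 1.52), and neither was called. Over the alternatives Cxcr7 ran from 0.03 to 1.49 and was called higher with array weights. Ccrl1 ran from 0.30 to 1.74 and was called higher with normexp, with array weights and without BA+DMSO replicate 2.

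The same comparison in mice on rapamycin (BA+rapamycin minus rapamycin) gave 21 of 28 genes called, 17 higher and 4 lower, where 42.7% of all genes were called, 19.8% higher and 22.9% lower. The median difference was 1.12 over the members and -0.07 over all genes. The slide was shared by all challenged arrays and by 2 of the 3 rapamycin arrays, and within that slide 15 members were called, where 11.97% of all genes were. With the title run as a fixed block 8 members were called, where 12.7% of all genes were. Without any single array 18 of the 21 kept their call, the exceptions being Ccl19, Ccl24 and Ccl8, lost without any one of 9, 6 and 5 of the arrays, respectively, in most cases arrays of the rapamycin or BA+rapamycin groups.

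All 7 monocyte-attracting ligands were again called higher. With the title run as a fixed block only Ccl6 and Ccl9 of the 7 kept their call, while Ccl2 was at 2.93 (limma adjusted p 0.0675), Ccl7 at 2.82, Ccl12 at 1.24, Ccl8 at 1.40 and Ccl5 at 1.11. Ccl2 read -2.07, -0.62 and -1.52 in rapamycin and 2.85, 3.84 and 3.73 in BA+rapamycin, a difference of 4.88 (SE 0.72, limma adjusted p 0.000996). The challenged arrays were close together and far above the others. Ccl7 differed by 4.75, Ccl12 by 3.50, Ccl6 by 2.42, Ccl9 by 2.26, Ccl8 by 2.22 and Ccl5 by 1.11. Cxcl14 read -5.16, -5.77 and -3.71 in rapamycin, of which 1 was above background, and 1.57, 1.78 and 1.51 in BA+rapamycin, a difference of 6.50 (SE 0.47) that rests in part on rapamycin values not above background. Ccr2 rose from -3.11, -3.51 and -3.27 to 1.48, 0.67 and 0.81 (difference 4.28, SE 0.62, limma adjusted p 0.00093).

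Members called lower in this contrast were Ccrl1, Ccrl2, Ccl27a and Ccl24. The call of Ccl24 (difference -1.12, limma adjusted p 0.0429) was lost under 13 of 28 alternatives. Ccl11, just outside the threshold at -1.22 (limma adjusted p 0.0508), was called lower under 10 of 28. Ccrl1 fell at least 1.96-fold (limma adjusted p 0.00135), but its difference was 0.0062 with normexp (limma adjusted p 0.979) and its call was lost with the brightness covariate (limma adjusted p 0.127). Ccrl2 fell by 2.03 on the log2 scale (limma adjusted p 0.00106). Cxcl11 was called higher here (1.48, limma adjusted p 0.00695), and its levels ran against array brightness, as above. The 75th percentile subtracted from each level was 257 to 337 units on rapamycin arrays and 74.6 to 109 on BA+rapamycin arrays. With brightness as a covariate the difference of Cxcl11 was -0.0056, a setting under which 9 members and 6.91% of all genes were called. The part of brightness in this call was not tested. Cxcl11 also lost its call at 0.56 with quantile normalization (limma adjusted p 0.0506) and at 0.56 in the deposited matrix (limma adjusted p 0.0515). Cxcl1 was not called here (difference 0.50, 95% interval -0.08 to 1.09), nor was Pf4 (0.05, 95% interval -0.77 to 0.87). A call in one contrast and not in the other is no test of their difference, which the interaction below gives. Both contrasts use separate control arrays.

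**Figure D4:**
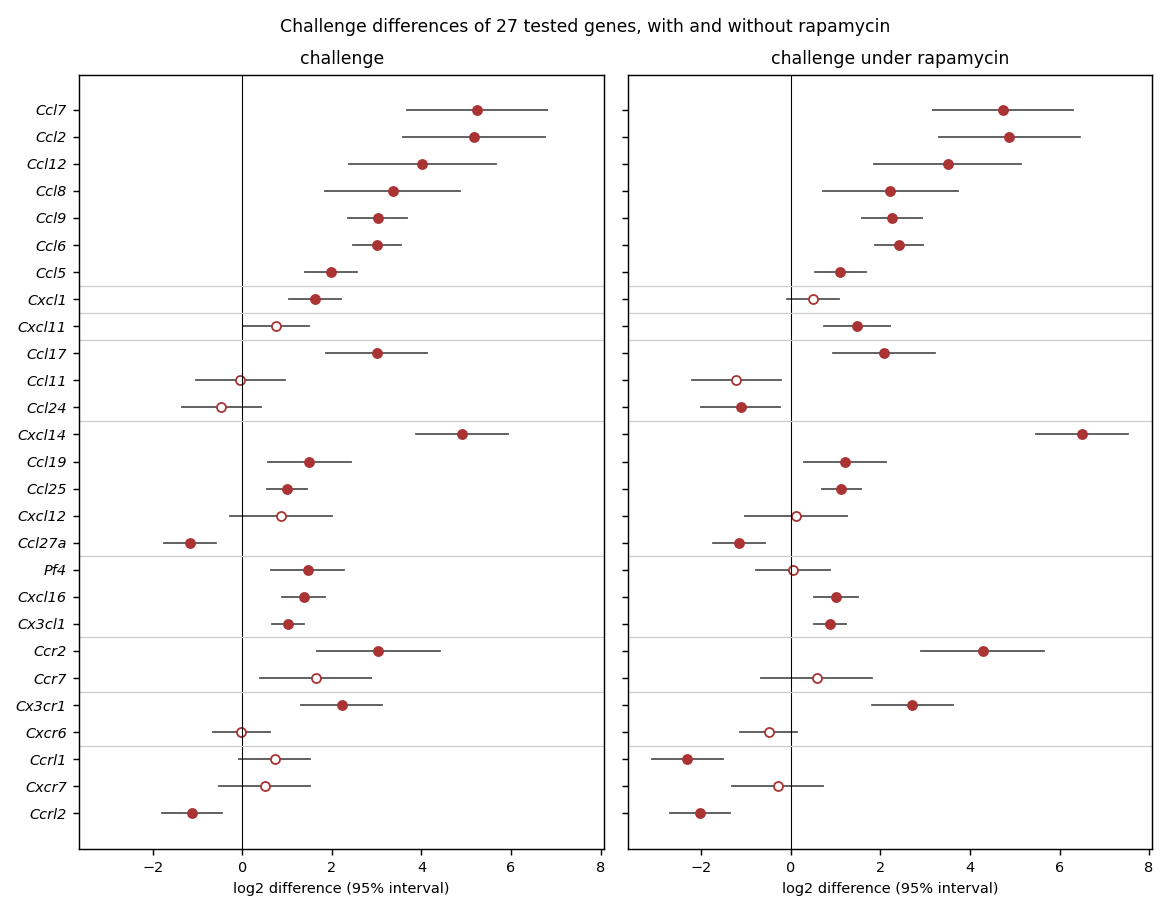
Challenge difference (log2, points) with its 95% interval for 27 tested genes without rapamycin (left) and with it (right), filled where the limma adjusted p was under 0.05 and divided by family. The 7 monocyte-attracting ligands at the top are filled in both panels, and Cxcl1, Pf4, Ccrl1, Cxcl11 and Ccl24 are filled in only one.

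The contrast of BA+rapamycin with BA+DMSO asked whether rapamycin changed these genes in challenged mice. Of 28 members, 1 was called, Ccrl1, which was lower, while 0.305% of all genes were called, 0.24% lower. At an unadjusted p under 0.05 there were 8 members, where 20.5% of all genes passed. The median difference was 0.02 over the members and -0.03 over all genes. All 6 arrays lay on the same slide. The count of calls was 7 when BA+DMSO replicate 2 was left out, where 41.0% of all genes were called. It was 4 when BA+DMSO replicate 1 was left out (0.834% of all genes) and 0 when BA+rapamycin replicate 2 was (0.12%).

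Ccrl1 (mm9 chromosome 9, 104000628 to 104000688) read -0.43, -2.04 and -1.36 in BA+DMSO and -3.77, -4.46 and -3.87 in BA+rapamycin. Every BA+DMSO array was above background and no BA+rapamycin array was. The level was at least 2.67-fold lower, with a measured difference of -2.76 (SE 0.36, limma adjusted p 0.0159). Without BA+rapamycin replicate 2 the difference was -2.54 (limma adjusted p 0.0591), and with background correction by normexp the difference was -0.56 (limma adjusted p 0.322). With the title run as a fixed block on 10 arrays it was -3.34 (limma adjusted p 0.0590), and no gene of all those tested was called. The second probe of the gene differed by -1.82 (limma adjusted p 0.101). The ligands that Ccrl1 clears were not called. Ccl19 differed by 0.24 (95% interval -0.68 to 1.16) and Ccl25 by 0.17 (-0.27 to 0.62).

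Cxcl14 was estimated higher with rapamycin but was not called. Its BA+DMSO arrays read -0.06, -1.05 and -1.45 and its BA+rapamycin arrays 1.57, 1.78 and 1.51. The groups did not overlap, and the difference of 2.47 (SE 0.47) had a limma adjusted p of 0.0621, just outside the threshold. It was called under 9 of its 27 alternative settings, among them quantile normalization, the percentile over detected probes and the deposited matrix, which is itself quantile-normalized. With the title run as a fixed block it was 1.62 (limma adjusted p 0.324).

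Other members whose arrays did not overlap were Pf4, Cxcl1 and Ccl5, all lower in BA+rapamycin and none called. Counting Ccrl1, 4 members were lower without overlap, where 8.08% of all genes were, and 1 was higher, where 6.8% were. Pf4 read 3.28, 3.57 and 3.46 in BA+rapamycin against 5.30, 3.93 and 4.78 in BA+DMSO (difference -1.23, SE 0.37, limma adjusted p 0.141). Cxcl1 read -1.75, -2.47 and -2.21 against -1.27, -1.25 and -1.13 (difference -0.93, SE 0.27, limma adjusted p 0.128). Only 2 of its 3 BA+rapamycin arrays were above background. Ccl8 showed a feature of spread: its BA+rapamycin arrays were nearly identical at 0.64, 0.68 and 0.63, while its BA+DMSO arrays ran from 0.61 to 3.15. Its difference was -1.498 (limma adjusted p 0.249), and -2.27 without BA+DMSO replicate 2 (limma adjusted p 0.0162), a setting in which 41.0% of all genes were called.

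The Ccr2 axis was not called in either direction. Ccl2 differed by 0.15 (95% interval -1.43 to 1.73), Ccl7 by -0.03 (-1.59 to 1.53) and Ccl12 by 0.12 (-1.52 to 1.76). These intervals are wide, and a p that misses the threshold does not show that the groups were alike. Over the alternatives Ccl2 ran from -1.81 to 0.82, Ccl7 from -1.97 to 0.74 and Ccl12 from -1.30 to 0.83, without a call. Ccr2 itself was higher on average, at 1.48, 0.67 and 0.81 against 1.03, -1.48 and -1.36, with overlap (difference 1.59, SE 0.62, limma adjusted p 0.21). The overlap came from BA+DMSO replicate 1, without which the difference was 2.41 (limma adjusted p 0.0466). With array weights it was 0.29, and on the 10 arrays with a title run, which hold only that BA+DMSO array, it was -0.04 without a block. Cx3cl1 was measured far more tightly, with a difference of 0.04 (95% interval -0.32 to 0.40), and so was Cxcl16, at 0.10 (-0.38 to 0.59).

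**Figure D5:**
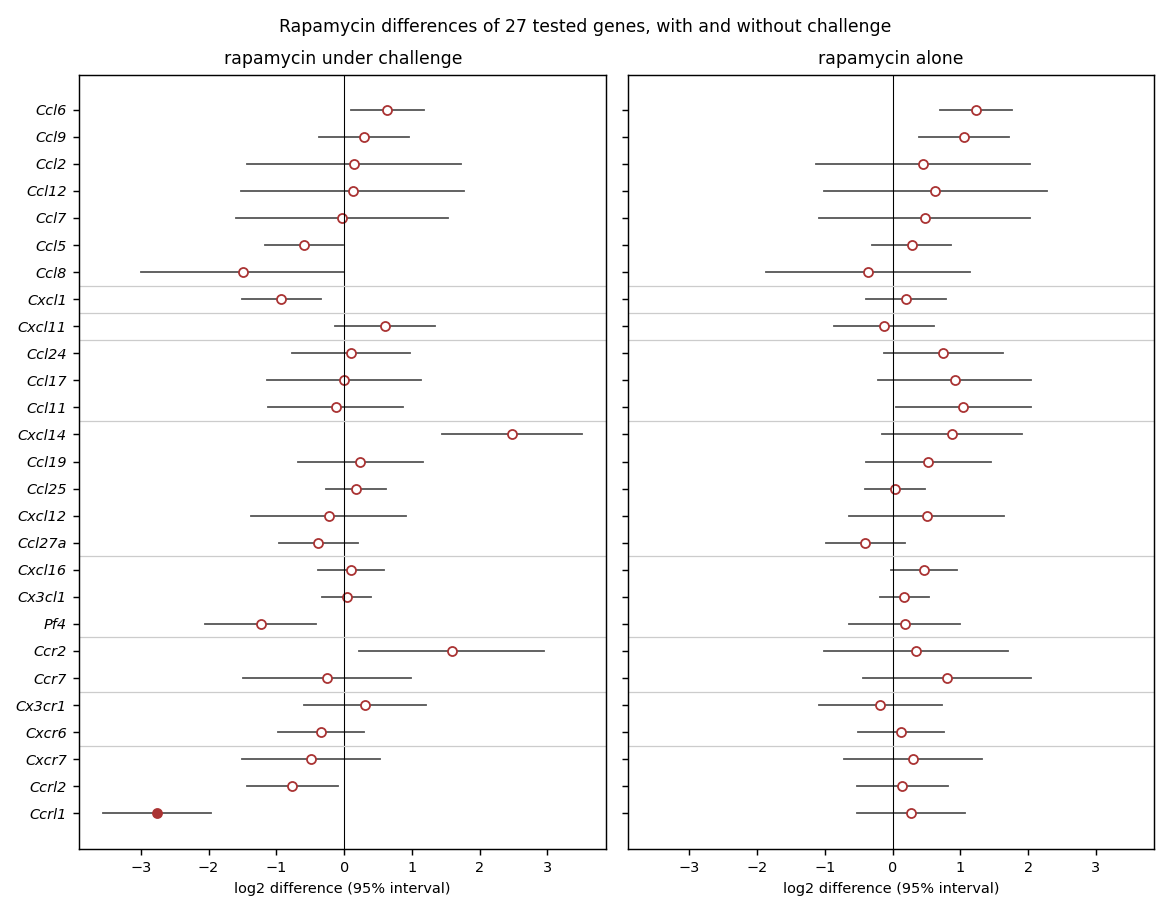
Rapamycin difference (log2, points) with its 95% interval for 27 tested genes under challenge (left) and without it (right), filled where the limma adjusted p was under 0.05 and divided by family. Ccrl1 at -2.76 is the only filled point, and the intervals of Ccl2, Ccl7 and Ccl12 under challenge run from about -1.5 to 1.7.

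In unchallenged mice, rapamycin minus DMSO gave no call among the members by limma, where 0.00499% of all genes were called. An unadjusted p under 0.05 was reached by 3 members, where 4.43% of all genes passed, and limma with array weights called 2, Ccl6 and Ccl9, where 1.98% of all genes were called. Estimates were above 0 for 24 of 28, with a median of 0.40 over the members and -0.01 over all genes. The arrays of 4 members, Cxcl16, Ccl19, Ccl9 and Ccl6, were higher without overlap, against 10.6% of all genes. Ccl6 read 2.82, 2.81 and 2.89 in rapamycin against 1.96, 1.32 and 1.55 in DMSO. The rapamycin arrays were almost equal, on both slides, and above every DMSO array, and the difference of 1.23 (SE 0.24) had a limma adjusted p of 0.409. Ccl9 read 2.25, 2.10 and 2.38 against 1.71, 0.91 and 0.96 (difference 1.05, SE 0.30, limma adjusted p 0.751).

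The interaction, rapamycin's difference under challenge minus that without challenge, gave no call by limma among members, where 0% of all genes were called. Its median was -0.62 over the members and -0.04 over all genes, and 6 of 28 estimates were above 0, none of them among the 7 monocyte-attracting ligands. At an unadjusted p under 0.05 there were 5 members, where 6.01% of all genes passed, and array weights called 1, where 3.42% of all genes were called. Ccrl1, not above background on any BA+rapamycin array, had an estimate of -3.03 (limma adjusted p 0.308), and of -0.63 with normexp. Cxcl14 had an estimate of 1.60 (limma adjusted p 0.737), which rests on unchallenged arrays of which 1 of 6 was above background. Pf4 had an estimate of -1.41 (SE 0.53, limma adjusted p 0.737). Without BA+DMSO replicate 2 there were 3 calls, Ccrl1, Pf4 and Cxcl12, where 11.2% of all genes were called.

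Ligands and their receptors were then set side by side. Where both sides were tested, the challenge difference was 5.17 for Ccl2 and 3.04 for Ccr2, and 1.01 for Cx3cl1 and 2.22 for Cx3cr1, all called, with 1 of 3 DMSO arrays above background for Ccr2. For Cxcl12 and Cxcr7 neither was called (0.86 and 0.50, limma adjusted p 0.263 and 0.469). For Cxcl16 and Cxcr6 only the ligand was called, and for Ccl19 and Ccr7 likewise. Ccl17, Cxcl1, Ccl6 and Ccl9 rose although Ccr4, Cxcr2 and Ccr1 were not above background on any array.

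Genes that act with chemokines were read from 3 lists. Counts of challenge calls in these and in the marker lists stand beside 10.4% of all genes called higher and 11% lower. Of 29 tested genes of receptor signalling, 15 were called higher and 4 lower under challenge, with a median of 0.72. Pik3r5, a subunit of the leukocyte PI3 kinase, differed by 2.80, and Rac2, the haematopoietic Rac GTPase, by 2.75. Of 19 tested inducers and transcription factors, 3 were called higher and 3 lower, with a median of 0.16. Il6 rose at least 12.96-fold (limma adjusted p 0.0135), and 2 of 3 BA+DMSO arrays were above background for it. Irf7 differed by 2.01 and Fos by -3.39. The cytokines Il1a, Ifng and Il17a were not above background on any array. Of 8 tested chemokine-related genes outside the naming rule, 3 were higher (Cmklr1, Dpp4 and Cd74) and Rarres2 was lower. Dpp4, which trims chemokines, differed by 1.64 and Cd74, a receptor of Mif, by 1.45. Rapamycin under challenge gave no call in any of these lists.

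Markers of other cells moved with the challenge, and their part in the chemokine results was not tested. Of 14 monocyte and macrophage markers, 13 were called higher (median 2.16), led by Cd68 (2.63), Tyrobp (2.54) and Lyz2 (2.40). Their summed level, in units of the 75th percentile, was 141 to 188 (DMSO), 176 to 210 (rapamycin), 329 to 599 (BA+DMSO) and 540 to 652 (BA+rapamycin). Without Itgam, the brightest, it was 53.0 to 105, 87.1 to 106.8, 172 to 340 and 244 to 257. Every challenged array was thus above every unchallenged array, as it was for Ccl2, Ccr2 and Ccl6. Neutrophil markers were called higher for 3 of 7, T and NK cell markers for 3 of 7, dendritic cell markers for 2 of 5 and B cell markers for 0 of 4, with Ngp, Ncr1, Cd8a, Klrb1c, Xcr1 and Clec9a not above background on any array. Erythroid markers were called higher for 4 of 4, endothelial for 3 of 8, lymphatic for 2 of 4, fibroblast for 2 of 8, adipocyte for 1 of 7 and striated muscle for 0 of 4. Of 8 smooth muscle markers, 1 was called lower and none higher, and all 8 passed the background filter. Of 10 immediate early genes, 7 were called lower. Mesothelial markers stood out by array: 5 of 6 were called higher (Upk3b 3.00, Lrrn4 2.87, Msln 2.83), with a summed level of 7.03 to 15.7 in BA+DMSO, 1.66 to 12.3 in BA+rapamycin and 0.614 to 3.55 in DMSO. With rapamycin no marker was called. Some summed levels and estimates follow, and their part in the results was again not tested. Under challenge, the summed level of the erythroid markers was 1413 to 2018 in BA+rapamycin and 686 to 827 in BA+DMSO, without overlap. All 6 mesothelial markers were estimated lower in BA+rapamycin (median -1.73), though their summed levels overlapped. In unchallenged mice, estimates with rapamycin were above 0 for 13 of 14 monocyte and macrophage markers (median 0.53), beside 24 of 28 members. They were also above 0 for 4 of 4 erythroid (1.47), 6 of 6 mesothelial (0.77), 4 of 4 lymphatic (0.53), 7 of 7 neutrophil (0.34) and 7 of 8 endothelial markers (0.39).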

How the data were processed

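The 12 arrays each read RNA from the aorta of a separate mouse, so p-values measure the spread between mice. Per the file headers, the authors scanned 1-colour Agilent arrays with Feature Extraction 10.7.1.1 (the submitters' processing notes name 9.5.1.1) and deposited processed intensity values, flags for spots well above background, and mm9 probe positions. The deposited matrix held quantile-normalized intensity values and was used as an alternative. Levels were log2 of the deposited intensity minus the 75th percentile of each array. Control spots were left out and spots of a probe averaged. A probe was tested if at least 0.5 of its spots were well above background on all 3 arrays of a group, which left 27801 probes. The tested probe with the highest mean level stood for each gene. All 4 groups were fitted together in limma 3.58.1 (R 4.3.3), with Benjamini-Hochberg adjustment over all probes tested and calls at 0.05. The script was tested on simulated data. Every member was accounted for. Members named with values had a call in some contrast, were among the 8 largest differences in either direction, or belonged to 16 genes listed whatever their result. From other lists, the 3 largest challenge differences were named, beside genes named where a count was small. The members and lists were chosen with earlier results of these data known. Precision was limited by the number of arrays. Alternatives changed the background correction, normalization, filter, slide term, title run, array weights (estimated gene by gene, since REML did not converge), brightness and arrays left out. Counts cover all members, but 1 member and 1 gene of another list are not reported here by name or plotted.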

Additional observations from a re-analysis of the deposited data

How the results depend on the processing

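The challenge count of 20 became 0 with the slide as a fixed block (0.0599% of all genes called) and 11 with only the groups of the contrast (4.78%). It was also 11 at the methods' threshold (p under 0.01 and fold over 4, 2.83%). When single arrays were left out it ran from 16 to 22, where 7.87% to 39.4% of all genes were called. For rapamycin under challenge, the count of 1 became 2 with quantile normalization (0.829% of all genes called), the percentile over detected probes (1.76%), the deposited matrix (0.824%), trended and robust moderation (0.854%) and the methods' threshold (0.17%). It became 5 with array weights (25.9% of all genes called). It was 0 on slide 2 alone and with only the groups of the contrast, where 0% of all genes were called in each. It was also 0 with probes above background on all 12 arrays (0.23%), a filter that removed Ccrl1 before testing. When single arrays were left out it ran from 0 to 7, where 0.115% to 41.0% of all genes were called. With normexp the count was again 1 (0.0499% of all genes called), but the gene was Cxcl14 (1.66, limma adjusted p 0.0160) and not Ccrl1. Array weights were estimated gene by gene because the REML estimate did not converge. For rapamycin alone, they gave 2 calls in place of 0, and leaving out single arrays gave 0. For the challenge under rapamycin, the count of 21 became 44 of 58 members with no filter on dim probes (51.3% of all genes called). It was 9 with the brightness covariate (6.91%) and 13 at the methods' threshold (5.43%). When single arrays were left out it ran from 18 to 21, where 24.2% to 58.3% of all genes were called. The interaction gave 1 call with array weights (3.42% of all genes called) and 1 at the methods' threshold (0.215%). It gave 0 to 3 when single arrays were left out, where 0% to 11.2% of all genes were called. Of 3824 recomputed values for single genes, 183 changed sign, 181 of them not called before or after. The other 2 were both for the challenge under rapamycin: Cxcl11 at -0.0056 with the brightness covariate (limma adjusted p 0.990) and Ccrl1 at 0.0062 with normexp (limma adjusted p 0.979). Beside these, 127 values lost a call and 67 gained one. The causes were not tested. Fewer samples or fewer genes entered where arrays or probes were left out. A fit with the replicate number as a block used replicates 2 and 3 of DMSO and rapamycin. It gave 0 calls among members for rapamycin alone, where 0.0899% of all genes were called. The same 4 arrays without a block, an alternative chosen after seeing the data, also gave 0, where 0% of all genes were called. Same-numbered arrays correlated at 0.17 and -0.35 in their deviations, so the numbers were not shown to pair mice. With the run of digits in the titles as a fixed block, on the 10 arrays that carry one, the counts were 7 for the challenge, 0 for rapamycin under challenge, 0 for rapamycin alone, 8 for the challenge under rapamycin and 0 for the interaction. Without the block they were 24, 2, 0, 21 and 1, where 35.5%, 16.1%, 0.02%, 62.2% and 1.52% of all genes were called. With it as a random block they were 24, 3, 0, 21 and 1, where 35.01%, 17.0%, 0.02%, 61.3% and 1.78% were. Ccrl1 for rapamycin under challenge was at -3.34 with the fixed block (limma adjusted p 0.0590). These fits were chosen after seeing the data.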
